A study of Mus musculus with 27 samples.

Results

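Hypophosphorylated RNA polymerase II (Pol II) was mapped by chromatin immunoprecipitation sequencing (ChIP-seq) with the antibody 8WG16 in mouse embryonic stem cells, after knockdown of WDR43 and in control cells. The members are the peaks of 4 deposited lists, 2 from cells with a control short hairpin RNA (shCtl) and 2 from cells with a short hairpin RNA against WDR43 (shWDR43). Together the lists held 95061 peaks, and the 4 libraries are 4 of the 27 samples of the series. A consensus peak of a group was a library 1 peak that overlapped a library 2 peak of that group by at least 1 bp.

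The series asked how WDR43, an RNA-binding protein, relates to open chromatin and to transcription. The cells were grown with serum and leukemia inhibitory factor, which keep them pluripotent. For the shCtl libraries the labels give a wild-type genotype and a Covance 8WG16 antibody (MMS-126R). For the shWDR43 libraries they give the antibody name only, so that genotype and supplier are not stated. The groups were deposited in 2 separate blocks of accessions, and block and knockdown cannot be told apart. Whether the numbers 1 and 2 mark replicate cultures or different hairpins is not stated for ChIP, so p-values measure only the spread between these libraries, which may be technical. The RNA libraries used beside them were 2 shCtl and 2 shWDR43 libraries of polyadenylated RNA from wild-type cells with spike-in RNA.

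The largest subunit of Pol II ends in a tail of repeated heptads whose serines are phosphorylated as transcription proceeds. Pol II joins promoters with this tail largely unphosphorylated, gains phosphate on serine 5 near the start and on serine 2 during elongation, and the antibody 8WG16 prefers repeats without serine 2 phosphate. WDR43 belongs to the small-subunit processome, the nucleolar assembly that matures the 18S ribosomal RNA precursor.

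Wdr43 RNA was 82.3 and 78.2 FPKM (a level per transcript length and library size) in shCtl and 21.2 and 20.7 FPKM in shWDR43 libraries. The change was -1.89 ± 0.12 (SE) on the log2(FPKM + 1) scale, with an adjusted p of 0.000751 in limma (Benjamini-Hochberg), the test behind every RNA call here. The Wdr43 locus itself (mm9, chr17:71965555-72008371, plus strand) lay under 8WG16 peaks for 1952 and 2063 bp in shCtl and 2368 and 1859 bp in shWDR43 libraries, so the groups overlapped there while its RNA was lower. All 10 stem cell markers were expressed above the filter of 1 FPKM. RNA of 9 of them was lower after knockdown, and that of fibroblast feeder markers was higher in 2, lower in 2 and not called in 8 of 12 tested, against 6.28% higher and 44.0% lower among all coding genes tested. After each RNA library was centred on its median, 6 stem cell markers were lower, and fibroblast markers were higher in 3 and lower in 1. In such bulk samples, fewer cells of a type and less RNA per cell cannot be told apart.

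The promoters of 4 genes are shown because their 8WG16 peaks stand for the classes described here: a start with a peak in all 4 lists (Wdr43), in both shCtl lists only (Utf1 and Tubb4b) and in both shWDR43 lists only (Cpz, chosen after its values were seen). Each runs over 300 bases around the RefSeq start on GRCm38.p6, most of them upstream, 5′ to 3′ on the strand of the gene. Capitals mark 2 motifs, searched on both strands, so that each may stand as its reverse complement. The first is GGGCGG, the GC box bound by factors of the Sp1 family. The other is TATAAA, the TATA box. Wdr43 spans chr17:71615965-71616264 (plus), Utf1 chr7:139943606-139943905 (plus), Tubb4b chr2:25224653-25224952 (minus) and Cpz chr5:35525577-35525876 (minus).
Wdr43: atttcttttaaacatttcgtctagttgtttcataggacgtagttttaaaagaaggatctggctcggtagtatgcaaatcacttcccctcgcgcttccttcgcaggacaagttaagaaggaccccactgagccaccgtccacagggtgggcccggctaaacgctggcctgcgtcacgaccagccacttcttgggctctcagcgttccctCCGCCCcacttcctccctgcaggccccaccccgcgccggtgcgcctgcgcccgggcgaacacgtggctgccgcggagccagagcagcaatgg
Utf1: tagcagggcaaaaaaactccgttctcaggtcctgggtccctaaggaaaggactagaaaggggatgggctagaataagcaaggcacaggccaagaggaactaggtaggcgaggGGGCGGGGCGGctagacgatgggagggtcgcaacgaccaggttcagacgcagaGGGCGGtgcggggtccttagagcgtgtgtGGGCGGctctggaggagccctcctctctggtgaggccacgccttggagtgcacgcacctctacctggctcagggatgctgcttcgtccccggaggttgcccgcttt
Tubb4b: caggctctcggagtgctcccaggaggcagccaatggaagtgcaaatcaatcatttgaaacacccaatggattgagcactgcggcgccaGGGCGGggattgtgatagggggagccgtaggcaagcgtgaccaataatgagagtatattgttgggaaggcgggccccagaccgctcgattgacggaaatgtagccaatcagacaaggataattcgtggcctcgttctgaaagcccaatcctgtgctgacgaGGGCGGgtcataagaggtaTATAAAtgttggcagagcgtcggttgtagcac
Cpz: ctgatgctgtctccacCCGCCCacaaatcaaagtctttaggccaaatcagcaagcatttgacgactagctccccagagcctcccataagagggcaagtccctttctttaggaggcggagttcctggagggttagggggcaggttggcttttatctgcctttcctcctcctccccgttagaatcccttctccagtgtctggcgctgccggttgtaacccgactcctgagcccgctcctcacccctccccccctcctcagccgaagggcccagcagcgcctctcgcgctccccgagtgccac
The Utf1 promoter held 4 GC boxes, a pair of them overlapping, and Tubb4b held 2 GC boxes and the only TATA box of these 4 sequences. Wdr43 and Cpz held 1 GC box each.

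More 8WG16 peaks were listed after WDR43 knockdown, and nearly all control peaks were still there. The shCtl lists held 19542 and 19561 peaks and the shWDR43 lists 31473 and 24485. The mean was 19552 ± 13.4 against 27979 ± 4941 (SD, n = 2 each), a ratio of 1.43, and both shWDR43 lists were longer than both shCtl lists. The exact two-sided permutation p was 0.333, the smallest that 2 libraries against 2 allow. Peaks covered 32.8 and 35.2 Mb in shCtl and 57.1 and 41.8 Mb in shWDR43 libraries. The 2 shCtl lists were nearly equal in length, whereas the 2 shWDR43 lists differed by more than shWDR43 library 2 differed from the controls. Without shWDR43 library 1 the ratio was 1.25. Read depth is unknown, and the part of depth or enrichment in these numbers was not tested.

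**Figure D1:**
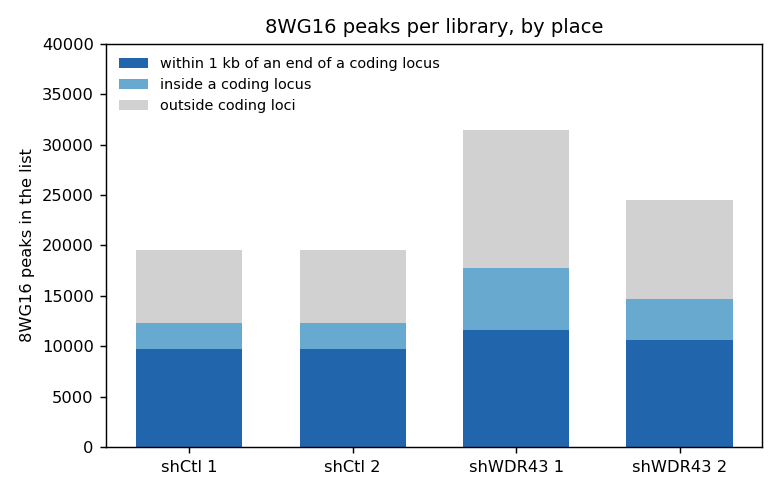
Bars give the number of 8WG16 peaks in each of the 4 lists (y axis, from 0), stacked by place relative to protein-coding loci, with no error bars because each bar is 1 library. The shWDR43 bars reach 31473 and 24485 peaks and the shCtl bars 19542 and 19561, and the added height lies mostly inside and outside loci.

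The lists were nested rather than exchanged. Of the peaks of shCtl library 1, 91.7% overlapped a peak of shCtl library 2, 97.0% one of shWDR43 library 1 and 94.8% one of shWDR43 library 2. Control peaks were thus found more often in the longer shWDR43 lists than in the other control list. In the other direction, 60.3% of the peaks of shWDR43 library 1 overlapped a peak of shCtl library 2, and 97.1% of those of shWDR43 library 2 overlapped one of shWDR43 library 1. By length, the 2 shCtl lists shared 76.5% of the bases that either covered, the 2 shWDR43 lists 66.6%, and pairs across groups 52.4% to 67.3%. shWDR43 library 2 thus shared 67.3% with shCtl library 2 and 66.6% with its own partner.

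Merging all peaks gave 32676 regions, of which 17252 (52.8%) carried a peak in all 4 lists. The next most frequent patterns were a peak in shWDR43 library 1 only (6770 regions) and in both shWDR43 libraries only (4415 regions). A peak in shWDR43 library 2 only was found in 425 regions, and in both shCtl libraries only in 135.

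**Figure D2:**
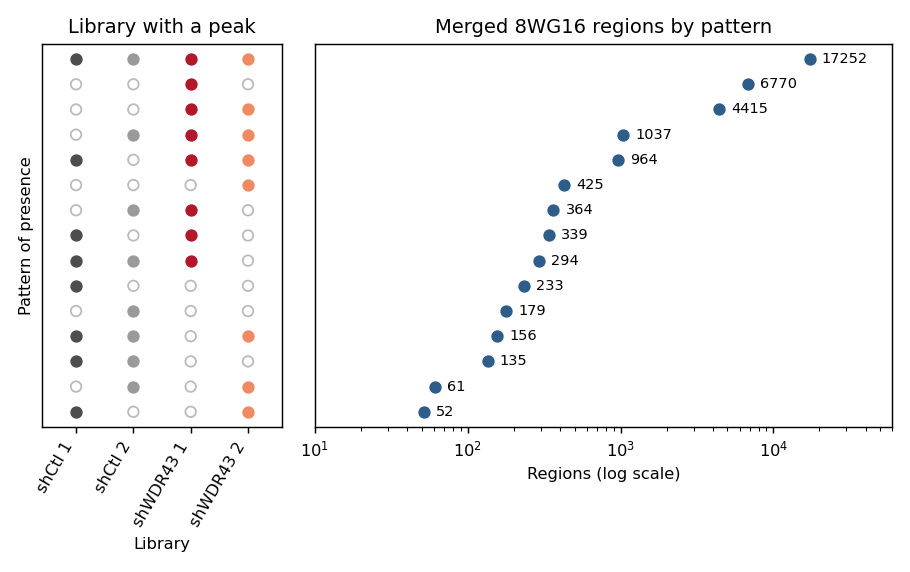
Points give the number of merged 8WG16 regions (x axis, log scale) with each pattern of presence over the 4 libraries, shown on the left by filled (peak) and open (no peak) circles. Regions with a peak in all 4 lists number 17252, those found only in both shWDR43 lists 4415, and those found only in both shCtl lists 135.

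Of the 23688 shWDR43 consensus peaks, 4423 (18.7%) had no peak in either shCtl list and are called gained. Of the 17924 shCtl consensus peaks, 139 (0.775%) had no peak in either shWDR43 list and are called lost. Another 17320 (96.6%) overlapped a peak in each of the 2 shWDR43 lists and are called kept. When each list was reduced to its 19542 highest-scoring peaks, gained peaks numbered 1248 (6.93%) and lost peaks 893 (4.98%), so the surplus of gained peaks was much smaller with lists of equal length. Without shWDR43 library 1 there were 4882 gained and 444 lost peaks, and without shWDR43 library 2 there were 11193 and 299.

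Gained peaks were narrow, with a median width of 1304 bp against 1488 bp for kept peaks. Only 16.5% (95% exact binomial interval 15.4% to 17.6%, counting error only) lay within 1 kb of an end of a protein-coding locus, against 53.1% of kept peaks. The remainder lay inside loci (30.8%) or outside them (52.7%). The gained peak with the highest score (839, the authors' own value, used only within a list) lay outside annotated loci at chr12:89159209-89161436 (mm9), and the next lay at Zfp41, a zinc finger gene (chr15:75455489-75457745), and inside Map3k7, the kinase TAK1 of TGF-beta and cytokine signalling (chr4:32055497-32058258). Zfp41 already carried 1750 and 1781 bp of peaks in shCtl libraries and had 3055 and 2436 bp in shWDR43 libraries. Map3k7 went from 1773 and 1824 bp to 4575 and 4274 bp, with no called change in its RNA as deposited (0.12 on the log2 scale) and a rise of 0.45 with centred libraries (limma adjusted p 0.0219).

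Among the 5 gained peaks with the highest scores at locus ends, 2 lay at genes whose RNA rose, Ano3 and Scn3b. Ano3, of the anoctamin family of membrane proteins, had no peak in either shCtl list and 1673 and 1464 bp in the shWDR43 lists (peak at chr2:110789307-110790979). Its RNA was 1.8 and 1.6 FPKM in shCtl and 11.5 and 9.4 FPKM in shWDR43 libraries, a rise of 2.08 on the log2 scale (limma adjusted p 0.000992). Scn3b, an accessory subunit of sodium channels, went from no peak to 1603 and 1388 bp (peak at chr9:40076202-40077804), and its RNA from 1.0 and 0.8 FPKM to 6.1 and 4.8 FPKM. Anks1b, which encodes a scaffold protein of synapses, had 1261 and 1277 bp in shCtl and 6475 and 4006 bp in shWDR43 libraries, at RNA levels below the filter. Bfsp2, a filament gene of the lens, had no peak in shCtl and 1757 and 1801 bp in shWDR43 lists, with RNA listed at 0 in 3 libraries and at 0.3 FPKM in shWDR43 library 2.

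The 139 lost peaks included several at genes expressed in stem cells. The highest score among them (1135) was at Cirbp, which encodes a cold-induced RNA-binding protein (chr10:79629704-79632389), and this locus kept a second peak, so that its covered length was 3350 and 3238 bp in shCtl and 1090 and 1157 bp in shWDR43 libraries. The next covered the histone genes Hist1h2bl, Hist1h2ai and Hist1h3h together (chr13:21806470-21811503), and the third lay over Terc, the RNA component of telomerase (chr3:96216762-96219350). Utf1, a chromatin-associated factor of pluripotent cells, carried a peak at chr7:147129114-147133617 in both shCtl lists and none in either shWDR43 list. Its RNA was lower by -1.28 ± 0.15 (SE) on the log2 scale, with 258 and 323 FPKM in shCtl and 128 and 109 FPKM in shWDR43 libraries. Daxx, a histone H3.3 chaperone, kept a shorter stretch, from 4172 and 4182 bp to 2078 and 1891 bp, and its RNA was lower as deposited (-0.58 on the log2 scale) but not called with centred libraries (-0.25, limma adjusted p 0.126). The gene Tsacc had the remaining lost peak of the 5 with the highest scores at locus ends.

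Lost peaks were wide: 33 of the 139 (23.7%) measured 4 kb or more, against 3.06% of the shCtl consensus. Peaks of 4 kb or more were lost in 6.02% of cases and narrower ones in 0.610%. In every list the median score was highest for peaks of 2 to 3 kb and lower for wider ones (in shCtl library 1 it was 439 at 2 to 3 kb and 84.0 at 7 kb or more), and no peak exceeded 9216 bp. Of the 51 shCtl library 1 peaks of 7 kb or more, 23.5% were absent from shCtl library 2, 49.0% from shWDR43 library 1 and 19.6% from shWDR43 library 2. Of the 57 shCtl library 2 peaks of this width, 3.51% were absent from shCtl library 1. They were absent from shWDR43 library 1 in 29.8% of cases and from shWDR43 library 2 in 8.77%. The control lists thus differed at such wide peaks mainly in the first direction.

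**Figure D3:**
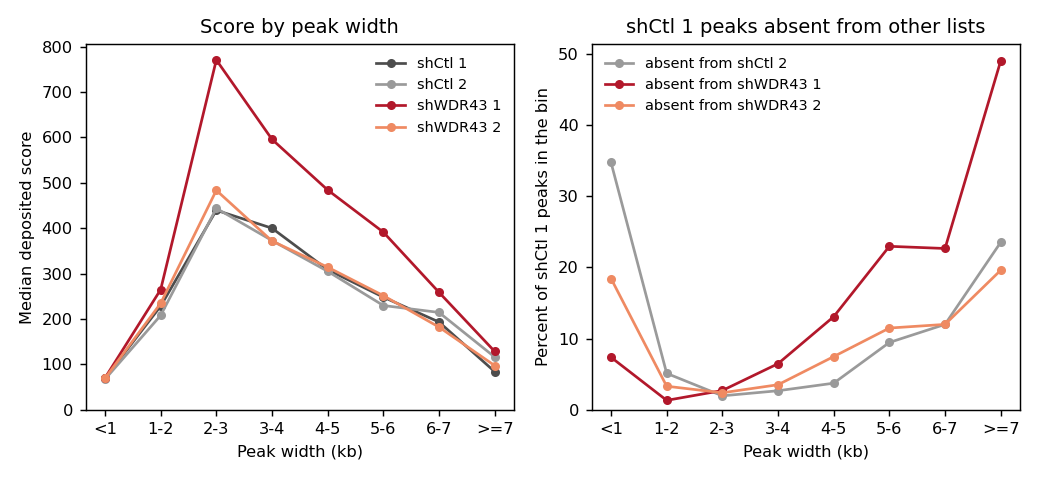
The left plot gives the median deposited score of the peaks (y axis) by peak width in kb (x axis) within each of the 4 lists, and the right plot the percent of shCtl library 1 peaks in each width bin with no overlapping peak in each other list. Scores are highest at 2 to 3 kb in all 4 lists, and at 7 kb or more 49.0% of the shCtl library 1 peaks are absent from shWDR43 library 1.

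Several of the most strongly expressed genes had no listed peak, in either group. Nanog, Sox2, Zfp42 and Dppa5a, all markers of pluripotency, carried no peak in any of the 4 lists, although Dppa5a RNA was 2257 and 2347 FPKM in shCtl libraries. Pou5f1, which encodes OCT4, had 5270 bp in shCtl library 1 and 5478 bp in shWDR43 library 2 but no peak in the other two lists. Actb (cytoplasmic actin) and Eef1a1 (a translation elongation factor) lacked a peak only in shWDR43 library 1. Over the 168 coding loci above 400 FPKM in shCtl, 96.4% and 94.0% had a peak in the shCtl lists and 92.3% and 94.6% in the shWDR43 lists. Why these loci lack a listed peak was not tested. With all peaks of 4 kb or more left out of every list, an alternative chosen after seeing the data, 4360 peaks were gained and 328 lost.

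After knockdown a smaller share of the peaks lay at ends of coding loci, although their number there was higher. The share within 1 kb of an end was 49.5% and 49.6% in shCtl and 36.8% and 43.2% in shWDR43 lists (exact permutation p 0.333, the smallest possible). The number at ends was 9683 and 9706 against 11573 and 10587. The number inside loci was 2627 in both shCtl lists and 6210 and 4102 in shWDR43 lists, a ratio of means of 1.96, and outside loci the ratio was 1.62. With the 19542 highest-scoring peaks of each list the difference in the share at ends was 0.489 percentage points in the other direction (49.6% in shCtl and 50.1% in shWDR43). That setting keeps nearly all shCtl peaks but only the top of the shWDR43 lists. With a score of at least 100 in every list, the mean share at ends was 56.9% in shCtl and 47.4% in shWDR43 lists. The shift was thus seen at that threshold but not with lists of equal length.

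For 14944 of the 20192 coding loci (74.0%) the strand could be taken from RefSeq by symbol, and 11507 of these were at least 5 kb long. A peak lay within 1 kb of the start in 59.1% of these loci in both shCtl lists and in 66.8% and 62.9% in the shWDR43 lists. At the finish the shares were 5.07% and 5.41% against 8.88% and 6.63%. In the body between them, 28.0% and 30.5% of loci had a peak in shCtl and 47.5% and 35.2% in shWDR43 lists, and the covered length in bodies was 4.08 and 4.50 Mb against 9.66 and 6.11 Mb. Starts, finishes and bodies were all above both controls in both shWDR43 libraries, with mean ratios of covered length of 1.14 at starts, 1.55 at finishes and 1.84 in bodies.

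Peaks shared by all lists were slightly wider in shWDR43 library 1 only. Over 17073 regions with a single peak in each list, 6805 (39.9%) were wider in both shWDR43 libraries than in both shCtl libraries and 555 (3.25%) narrower. The median log2 ratio of widths was 0.27 for shWDR43 library 1 over shCtl library 1 and 0.17 over shCtl library 2. For shWDR43 library 2 it was 0.08 over shCtl library 1 and -0.01 over shCtl library 2. The 2 shCtl libraries differed from each other by 0.09.

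Per locus, the length under a peak was measured over the locus and 1 kb on either side. It was longer in both shWDR43 libraries than in both shCtl libraries at 6181 of 20192 coding loci (30.6%) and shorter at 283 (1.40%). Of the 13577 loci with a peak in at least 1 list, 45.5% were longer and 2.08% shorter. These shares are the background for the gene groups below, and no test was made per locus. With lists of equal length 4901 loci were longer and 645 shorter, and without shWDR43 library 1 there were 6460 and 2604.

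Among the 10 loci with the largest rises were long genes with several new peaks. Msi2, which encodes the RNA-binding protein Musashi 2, had 5918 and 7731 bp in shCtl and 24691 and 16407 bp in shWDR43 libraries. Bcl2l1, the gene of the survival factor BCL-XL, had 5268 and 8179 bp against 18861 and 15556 bp, and its RNA was higher by 0.43 on the log2 scale. Rnf220, a ubiquitin ligase gene, had 9308 and 10971 bp against 34560 and 14871 bp, and Etl4 10588 and 10795 bp against 30602 and 17788 bp. The other loci of the 10 with covered lengths given here were Gm4340 (1271 and 2180 bp against 14523 and 12761 bp) and Gtf2ird1 (2131 and 3811 bp against 15855 and 10799 bp). Without peaks of 4 kb or more Gm4340 was shorter. In Rnf220, Etl4 and Gtf2ird1 shWDR43 library 1 was far above library 2, and with lists of equal length their difference turned to -556, -3396 and -307 bp. RNA of 2 of the 10, Gm4340 and Bcl2l1, was called higher and none was called lower, and Pcdha4-g was not tested. Among all coding genes tested 6.28% were higher and 44.0% lower. With centred libraries Sipa1l3, also of the 10, was higher by 0.47 (limma adjusted p 0.0225).

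Among the 10 largest falls, 5 loci lost all peaks. Usp48, a deubiquitinase gene, had 6026 and 6777 bp in shCtl libraries and none after knockdown, with no called change in its RNA. Tubb4b, a beta-tubulin gene (mm9, chr2:25077678-25080222), had 4545 bp in both shCtl libraries and none after knockdown, and Eif2s2, the beta subunit of translation initiation factor 2, 4399 and 4020 bp and none. Tubb4b RNA was lower by -0.46 and Eif2s2 RNA by -0.85 on the log2 scale, and with centred libraries the Tubb4b call was lost (-0.13, limma adjusted p 0.301). RNA went the other way at Htra1, a secreted protease gene, and Tmem51, also among these 10 loci, with rises of 0.53 and 0.46 (limma adjusted p 0.0235 and 0.0382). The fall in coverage at Htra1 changed sign with a score of at least 100, and that at Tmem51 without peaks of 4 kb or more. Tubb4b and Eif2s2 were expressed highly, at 441 and 362 FPKM on average in shCtl libraries, and Htra1 and Tmem51 at 8.5 and 5.3 FPKM. Srcrb4d and St6galnac1 lost their peaks with RNA under the filter of 1 FPKM. Vangl1, a planar cell polarity gene, kept part of its coverage, with 12459 and 12635 bp against 4355 and 2883 bp.

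**Figure D4:**
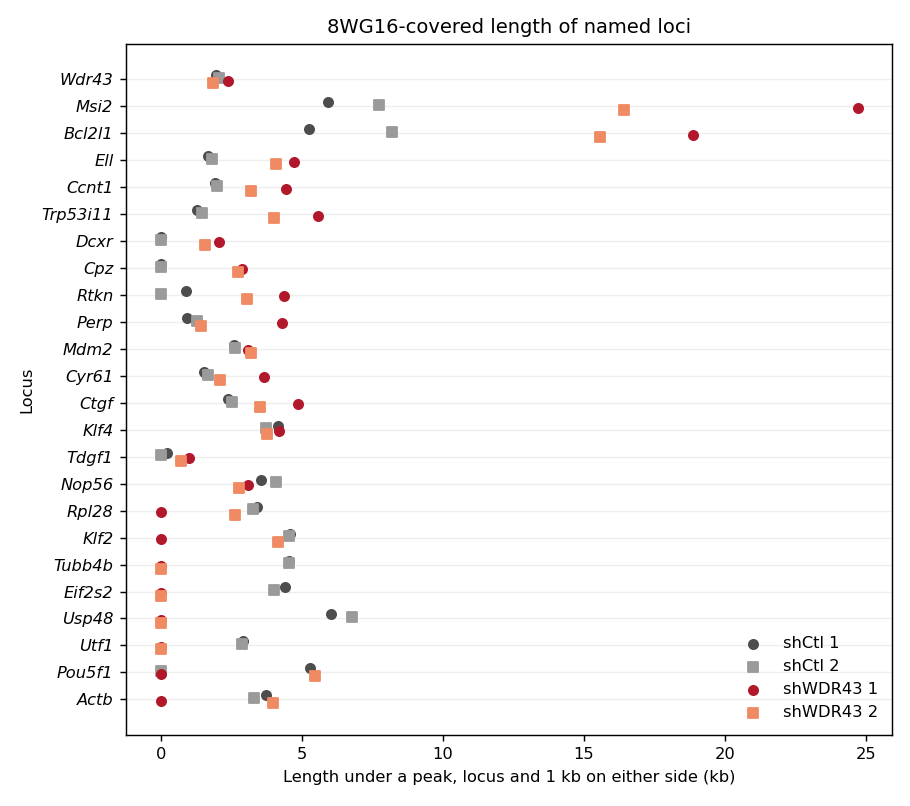
Points give the length under an 8WG16 peak over each locus and 1 kb on either side (x axis, kb) in each of the 4 libraries, for 24 named loci (y axis). Msi2 and Bcl2l1 lie furthest to the right in the shWDR43 libraries, Tubb4b, Eif2s2, Usp48 and Utf1 fall to 0 in both, and Actb falls to 0 in shWDR43 library 1 only.

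Targets of p53, the stress-induced transcription factor, were longer in 23 of 33 loci and shorter in 1. The shares were 30.6% and 1.40% of all coding loci, and 45.5% and 2.08% of those with a peak in at least 1 list. The median difference of the p53 targets was 630 bp, against 83.5 bp over all coding loci and 251 bp over those with a peak in at least 1 list. RNA of 16 of the 33 was higher and of 2 lower, with a median of 0.46, against 6.28% higher and 44.0% lower among all coding genes tested (median -0.39). Trp53i11 had 1299 and 1454 bp in shCtl and 5557 and 4001 bp in shWDR43 libraries, and a gained peak at an end, but with lists of equal length its difference was -1377 bp. Dcxr, which encodes a carbonyl reductase, had no peak in shCtl and 2046 and 1581 bp in shWDR43 libraries, with RNA at 8.0 and 8.6 against 36.2 and 37.0 FPKM. Btg2, an antiproliferative gene, had 1881 and 2049 bp against 3006 and 2764 bp, and the kinase gene Plk2 1661 and 1868 bp against 3222 and 2590 bp.

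At the 2 best-known p53 targets the covered length was longer and RNA was higher. Covered length holds no read counts, so the sizes of these changes cannot be compared. Mdm2, the ubiquitin ligase that restrains p53, had 2592 and 2639 bp in shCtl and 3089 and 3197 bp in shWDR43 libraries, with RNA at 53.2 and 49.7 against 158 and 129 FPKM. Cdkn1a, the cell cycle inhibitor p21, had 2907 and 2932 bp against 3160 and 2987 bp, with RNA higher by 1.52 on the log2 scale. Perp, a desmosomal target of p53, had 921 and 1286 bp against 4311 and 1439 bp, so that shWDR43 library 2 was only just above the controls. With peaks of 4 kb or more left out, 12 of the 33 loci were longer and 3 shorter, near the 28.4% longer of all coding loci under that setting (2.31% shorter), and the differences at Mdm2, Perp, Btg2, Zmat3 and Ccng1 turned negative. With lists of equal length 20 loci were longer and 3 shorter, against 24.3% and 3.19% of all coding loci.

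Immediate early genes, the first response to growth signals, were longer in 10 of 27 loci (37.0%) and shorter in 2 (7.41%). All coding loci gave 30.6% and 1.40%, and those with a peak in at least 1 list 45.5% and 2.08%. Cyr61 and Ctgf, secreted matricellular proteins, had the largest rises. Cyr61 went from 1538 and 1656 bp to 3665 and 2081 bp and Ctgf from 2387 and 2531 bp to 4862 and 3528 bp, and their RNA was higher by 2.06 and 1.55 on the log2 scale. The difference at Cyr61 turned negative with a score of at least 100, with lists of equal length and without peaks of 4 kb or more, and that at Ctgf in the last of these. Dusp4, a phosphatase of the MAP kinase pathway, was shorter (3236 and 3781 bp against 3182 and 1572 bp) with lower RNA (-1.17). Once peaks of 4 kb or more were left out, its mean difference was 786 bp, with overlapping groups. Of the ATF4 stress genes 4 of 26 loci (15.4%) were longer, below both of these shares, and 1 (3.85%) was shorter, namely Nupr1. Ddit4, an inhibitor of mTORC1, had 1525 and 1630 bp against 4096 and 3920 bp, a difference that turned negative without peaks of 4 kb or more, and Cars, the cysteinyl-tRNA synthetase gene, 1472 and 1419 bp against 8284 and 7715 bp without a called change in its RNA (-0.19).

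Genes of pausing and elongation factors were longer in 15 of 25 loci (60%) and shorter in none. The shares longer were 30.6% of all coding loci and 45.5% of those with a peak in at least 1 list. RNA of 17 of the 25 was lower and of none higher as deposited, and of 8 lower and 2 higher with centred libraries. As deposited, 44.0% of all coding genes tested were lower and 6.28% higher. With centred libraries, 20.9% of all genes tested were lower and 13.0% higher. Ell, an elongation factor of the super elongation complex, had 1663 and 1825 bp in shCtl and 4704 and 4085 bp in shWDR43 libraries. Ccnt1, the cyclin of the kinase P-TEFb, had 1930 and 1979 bp against 4448 and 3204 bp. For Cdk9, its kinase, the values were 2156 and 2134 bp against 2231 and 2252 bp, a small difference in groups that did not overlap. With lists of equal length 14 loci were longer and none shorter. The genes of Pol II subunits were longer in 4 of 13 loci and shorter in none, with RNA lower in 11 (10 lower and 1 higher when centred). Their median difference in covered length was 86 bp, against 83.5 bp over all coding loci and 251 bp over those with a peak in at least 1 list. Without shWDR43 library 1, 4 were longer and 7 shorter, against 12.9% shorter of all coding loci.

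Fewer ribosomal protein genes were longer than the 30.6% of all coding loci, and more were shorter than the 1.40%. Large-subunit genes were longer in 6 of 45 loci and shorter in 8, and small-subunit genes longer in 4 and shorter in 1 of 31. RNA of all 45 and of all 30 tested was lower (39 and 20 when centred). Among all coding genes tested 44.0% were lower, and 84.1% in the highest of 5 equal groups by shCtl FPKM. With centred libraries 20.9% of all genes tested were lower. Rpl28 had 3425 and 3249 bp in shCtl and 0 and 2638 bp in shWDR43 libraries. Without peaks of 4 kb or more its mean difference was 1319 bp, with overlapping groups. Rpl38 was longer, with 1625 and 2143 bp against 2843 and 2309 bp. Without shWDR43 library 1, 27 of the 45 large-subunit loci were shorter and 6 longer, against 12.9% and 32.0% of all coding loci, so the count of shorter loci depended on that library. Without shWDR43 library 2, 19 of the 31 small-subunit loci were longer, against 57.9% of all.

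All 35 processome genes, the group of Wdr43, had a peak in all 4 lists, as had all 34 genes of Pol I and the nucleolus. The processome genes were longer in 12 loci and shorter in 2, and the Pol I and nucleolar genes longer in 12 and shorter in none. Their shares longer (34.3% and 35.3%) lay above the 30.6% of all coding loci and below the 45.5% of those with a peak in at least 1 list. Without shWDR43 library 1 the processome genes were longer in 12 and shorter in 13, and the Pol I and nucleolar genes longer in 12 and shorter in 10, against 12.9% shorter of all. RNA was lower for 31 of the 35 and 31 of the 34 (25 and 22 when centred). It was lower for 44.0% of all coding genes tested, and when centred for 20.9% of all genes tested. Nop56, a core protein of box C/D snoRNPs, had 3539 and 4089 bp in shCtl and 3096 and 2786 bp in shWDR43 libraries, and its partner Nop58 3982 and 4993 bp against 7235 and 6016 bp. RNA of both was lower (-0.92 and -0.91), and both differences in coverage changed sign without peaks of 4 kb or more. Ubtf, the Pol I factor UBF, had 1389 and 1251 bp against 3665 and 3960 bp, again with lower RNA (-0.80). Nucleolin (Ncl), an abundant nucleolar protein, had 2259 and 2619 bp against 2829 and 2354 bp, with overlapping groups, at RNA lower by -1.48.

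Genes of naive pluripotency were longer in 10 of 32 loci and shorter in 6, a larger share shorter than the 1.40% of all coding loci. Their RNA was lower in 26 and higher in none (17 and 1 when centred). Among all coding genes tested 44.0% were lower and 6.28% higher. With centred libraries 20.9% of all genes tested were lower and 13.0% higher. Lists of equal length gave 7 longer and 10 shorter, and without peaks of 4 kb or more 4 were longer and 4 shorter. Klf2, a pluripotency factor of the Krüppel family, had 4593 and 4541 bp in shCtl and 0 and 4152 bp in shWDR43 libraries. With a score of at least 100 its mean difference was 2076 bp, with overlapping groups. Nr0b1, which encodes the repressor DAX1, had 2940 and 2841 bp against 2390 and 2083 bp, with RNA lower by -1.32. Klf4 did not separate (4169 and 3732 bp against 4202 and 3778 bp). Tdgf1, a Nodal co-receptor gene, was longer (214 and 0 bp against 1010 and 703 bp) although its RNA was lower by -2.16. With lists of equal length its mean difference was -107 bp, with overlapping groups. Lefty2, a Nodal antagonist with one of the largest falls in RNA (-3.26), had a peak only in shCtl library 1 (2658 bp).

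Replication-dependent histone genes were longer in 17 of 62 loci (27.4%) and shorter in 4 (6.45%). Genes that hosted snoRNAs were longer in 1 of 12 loci (8.33%) and shorter in 2 (16.7%). All coding loci gave 30.6% and 1.40%, and those with a peak in at least 1 list 45.5% and 2.08%. Developmental transcription factors, most of them silent in these cells, had a peak in 11 and 13 of 43 loci in shCtl and in 23 and 13 in shWDR43 lists, so that shWDR43 library 1 alone exceeded the controls. Msx2 and Pax7, of this group, had no peak in shCtl lists and 1195 and 1027 bp, and 2860 and 2339 bp, in shWDR43 lists. Otx2, an expressed member, was shorter, with 2397 and 2094 bp against 389 and 0 bp and RNA lower by -1.06. Genes of other tissues had a peak in 2 and 1 of 33 loci in shCtl and 5 and 3 in shWDR43 lists, and fibroblast markers in 5 and 5 of 17 against 8 and 6.

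RNA and 8WG16 coverage were then set beside each other over 10669 coding genes tested. RNA was higher for 6.28% of them and lower for 44.0%. Leaving out any of the 4 RNA libraries left no gene called. A peak at an end was kept at 10166 coding loci (50.3%), gained at 628 (3.11%) and lost at 30 (0.149%). The median change of RNA was 0.04 at the 261 tested loci with a gained peak, -0.41 at 9044 with kept peaks and -0.70 at 25 with a lost peak, against -0.39 over all. Of the loci with a gained peak, 24.5% had higher RNA, against 4.72% of those with kept peaks. Tested loci with a gained peak had a median of 2.5 FPKM in shCtl, against 12 FPKM for kept peaks. Among 5 equal groups of tested coding genes by shCtl FPKM, the median change was -0.0023 in the lowest, with 14.1% higher. In the highest group it was -0.76, with 1.22% higher. The part of expression level in the medians and shares of gained and kept loci was not tested. Over all genes tested, the median change was -0.39 as deposited and -0.06 after each RNA library was centred on its median. The medians of the 3 classes became 0.37, -0.08 and -0.37, in the same order, and the share of higher calls among all called genes went from 12.5% to 38.3%.

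Loci with higher RNA more often had longer coverage. Of 670 coding genes with higher RNA, 414 (61.8%) were longer and 9 (1.34%) shorter, and of 4692 with lower RNA 1738 (37.0%) were longer and 145 (3.09%) shorter, against 44.1% and 2.17% of all tested. The median difference in covered length was 659 bp in the first class and 142.5 bp in the second. With centred RNA the shares longer were 58.4% and 34.1%. With lists of equal length they were 52.7% and 32.0%, and without shWDR43 library 1 they were 64.2% and 38.9%. Without shWDR43 library 2 they were 82.7% and 79.7%, so in shWDR43 library 1 alone most loci were longer whatever their RNA. Genes are not independent replicates, and these shares carry no test.

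The genes with higher RNA were also expressed at lower levels in shCtl (median 3.85 FPKM against 24.0 for those with lower RNA), so the shares were taken again within 5 equal classes of genes by shCtl FPKM. These classes use shCtl values that the RNA call also uses. Of genes with higher RNA, 60.1% to 69.2% were longer in the 5 classes, and of those with lower RNA 34.2% to 41.8%. The order was the same in each class.

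**Figure D5:**
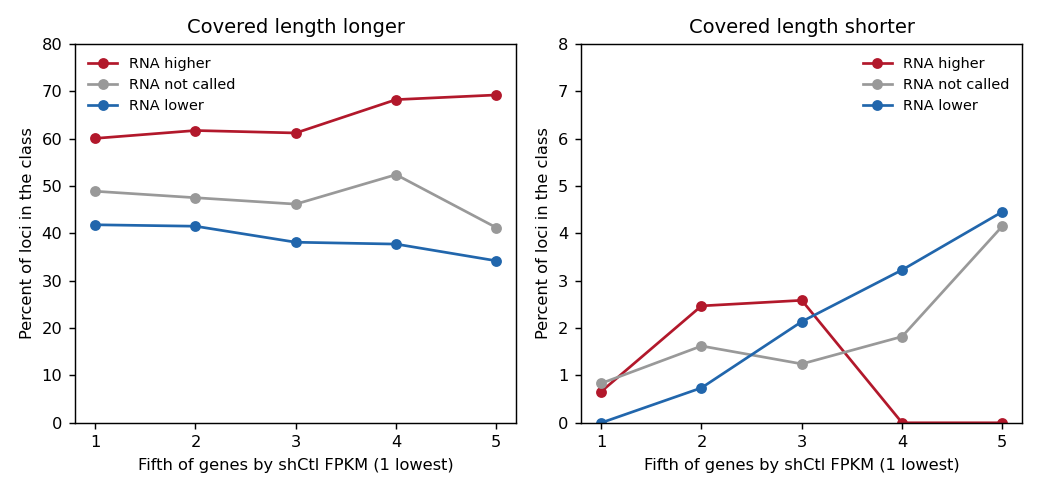
Points give the percent of loci whose covered length is longer (left) or shorter (right) in both shWDR43 libraries than in both shCtl libraries, by class of genes ranked on shCtl FPKM (x axis), for genes with higher, lower or uncalled RNA. On the left the genes with higher RNA lie at 60.1% to 69.2% and those with lower RNA at 34.2% to 41.8%, and on the right all shares are under 5%.

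Of the 50 largest rises of RNA, 38 loci were longer and none shorter, and of the 50 largest falls 17 were longer and 2 shorter. Among all 10669 coding genes tested, 44.1% were longer and 2.17% shorter. Cpz, a carboxypeptidase that binds Wnt proteins, had no peak in shCtl and 2862 and 2736 bp in shWDR43 lists, with RNA at 0.6 and 0.5 against 6.8 and 5.8 FPKM. Rtkn, which encodes rhotekin, had 883 and 0 bp against 4376 and 3071 bp, with RNA at 6.0 and 6.6 against 41.1 and 32.0 FPKM. With lists of equal length its mean difference was -441.5 bp, with overlapping groups. Ltb4r1, a leukotriene receptor gene, had no peak in any list although its RNA rose by 2.42 on the log2 scale. Slc16a3, a lactate exporter, kept its coverage (1227 and 1186 bp against 1490 and 1208 bp) at RNA lower by -2.61.

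WDR43 itself was mapped with a FLAG antibody in 3 libraries of different cells: Fbio-tagged WDR43 cells given the solvent DMSO, and cells titled FB and cFB-KI, for which the labels give no genotype. In that order the maps overlapped 67.1%, 82.0% and 69.1% of kept peaks and 18.0%, 27.0% and 20.3% of gained peaks. Of the shCtl consensus peaks 88.5% overlapped a WDR43 peak in at least 1 of the 3 maps, of kept peaks 89.4%, of lost peaks 59.7% and of gained peaks 38.8%. At ends of coding loci the share was 97.2% for kept and 71.9% for gained peaks, inside loci 75.8% and 28.3%, and outside loci 82.2% and 34.6%. Gained peaks thus overlapped WDR43 less often than kept peaks within each place compared. Gained peaks were also narrower, and the part of width in these shares was not tested.

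The phosphorylated forms of Pol II were seldom listed at gained peaks. Of gained peaks 2.15% and 3.12% overlapped a Ser5P peak of the 2 shWDR43 libraries, against 25.5% and 29.5% of kept peaks. For Ser2P the shares were 2.44% and 2.31% of gained and 8.63% and 8.73% of kept peaks. The phosphorylation lists were far shorter than the 8WG16 lists, with 6535 and 7589 Ser5P peaks in shWDR43 libraries, so most 8WG16 peaks of any class lay outside them. Gained peaks were also narrower and lay less often at locus ends than kept peaks. The part of width and place in these shares was not tested.

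The promoters of loci with gained peaks lay between those with kept peaks and those without. Over loci oriented by RefSeq, the median number of CpG dinucleotides in the 300 bases was 23 at 7455 starts with kept peaks, 15 at 398 starts with gained peaks, 20 at 29 starts with lost peaks and 3 at 5989 starts without a peak. Over all 14944 oriented loci the median was 15, the same as at gained starts. GGGCGG on either strand was present in 69.9% of kept, 63.8% of gained, 44.8% of lost and 20.6% of peak-free starts. The share was 49.3% of all oriented loci, and 35.9% of all 27025 promoters of this length in RefSeq. TATAAA was present in 5.75%, 6.53%, 10.3% and 22.8%, against 12.8% of all oriented loci and 14.2% of all 27025 promoters. The median level of RNA in shCtl was 10.7 FPKM at kept and 0.60 FPKM at gained starts.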

How the data were processed

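Peaks of 4 8WG16 ChIP libraries were compared, with 2 shCtl and 2 shWDR43 libraries grouped by their titles. The authors deposited 1 list per library, with chromosome, start, end, a MACS name and a score per peak, and the deposited score was at least 50 in every list. Per the submitters' processing notes, reads were aligned with Bowtie2 to mm9. The version and threshold of the caller and its control library: not given in the sources used here. ChIP depth is unknown. For RNA, the authors deposited 1 table with a value per gene and library. Its unit was taken as FPKM because the submitters' processing notes list TopHat with Cufflinks, while the deposited table names no unit. No source used here says whether spike-in RNA entered the scaling, and fragment depth is unknown. The table's deposited p-values were made by the authors in a way its header does not describe, and were not used.

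Coordinates are 1-based. Coding loci came from the RNA table, and their strand from RefSeq (GRCm38.p6) by symbol. RNA was tested with limma 3.58.1 (R 4.3.3) on log2(FPKM + 1) for genes with a mean of at least 1 FPKM, with a trend and Benjamini-Hochberg adjustment over 12452 genes and a threshold of 0.05, which called 760 higher and 5322 lower. Fold changes on this scale understate changes of low genes. Interval code was checked against bedtools 2.31.1, and limma was tested on simulated data, where it recovered 22% of changes of 1 and 76% of changes of 2 on the log2 scale. Intervals on shares are exact binomial (Clopper-Pearson). Named loci were Wdr43, the 10 largest rises and falls of covered length, the 2 highest and 2 lowest of each of 16 gene lists, the genes at the peaks with the highest scores, and loci added after their values were seen: Nanog, Sox2, Zfp42, Pou5f1, Actb, Eef1a1, Mdm2, Cdkn1a, Perp, Btg2, Plk2, Ccng1, Dcxr, Cdk9, Nr0b1, Klf4, Lefty2, Ncl, Cpz, Rtkn, Ltb4r1 and Slc16a3. Some loci that this rule names are not reported here. The members and lists were chosen with earlier results of these data known. Alternatives were a score of at least 100, lists of equal length, other overlap rules and windows, other treatments of the RNA values, and leaving out each library. Samples of other assays are not analysed here, apart from WDR43, Ser5P and Ser2P peak lists used for overlap.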

Additional observations from a re-analysis of the deposited data

How the results depend on the processing

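ChIP and RNA depth are unknown, and coverage was not tested per locus. With a score of at least 100, 82 peaks were lost. With lists of equal length, 1248 peaks were gained and 893 lost, 645 loci were shorter, and the share at ends was 0.489 percentage points higher in shWDR43. Without peaks of 4 kb or more (chosen after seeing the data) 328 peaks were lost and 467 loci shorter, and with a reciprocal overlap of 50% 399 peaks were lost. Leaving out each library gave 4882 to 11193 gained and 299 to 444 lost peaks, 6460 to 11697 longer and 425 to 2604 shorter loci. The cause was not tested.

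Some named loci changed sign (shWDR43 minus shCtl, bp). With a score of at least 100 these were Cyr61 (-556.5), Gm13152 (5387), Htra1 (1452) and Klf2 (2076). With lists of equal length they were Cyr61 (-556.5), Etl4 (-3395.5), Gtf2ird1 (-307), Rnf220 (-556), Rtkn (-441.5), Tdgf1 (-107) and Trp53i11 (-1376.5). Without peaks of 4 kb or more they were Btg2 (-583), Ccng1 (-721), Ctgf (-695), Cyr61 (-556.5), Ddit4 (-1577.5), Dusp4 (786), Eif4a1 (-1347), Gm4340 (-1725.5), Hist1h2be (-3100.5), Mdm2 (-2615.5), Nop56 (1393), Nop58 (-12), Perp (-384), Rpl28 (1319), Tmem51 (1728.5), Ttf1 (-2287) and Zmat3 (-100.5). The cause was not tested.

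The median RNA change at loci with kept peaks was -0.47 with a pseudocount of 0.1, -0.36 without the filter on low values and -0.083 with centred libraries. At loci with gained peaks it was 0.37 when centred. At loci with lost peaks it was -0.57 without the filter, -0.37 when centred and -0.55 with a score of at least 100. At loci without a peak it was -0.33 with the pseudocount of 0.1, 0 without the filter, 0.068 when centred and -0.27 with a score of at least 100. Leaving out each library gave -0.47 to -0.36 (kept), 0.039 to 0.12 (gained), -0.73 to -0.62 (lost) and -0.32 to -0.22 (no peak). Genes called by limma numbered 277 higher and 633 lower without the filter, and 1615 and 2606 when centred. Leaving out each library, limma called 0 higher and 0 lower, with 576 to 730 higher and 3928 to 4902 lower at an unadjusted p under 0.05.

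With the replicate number as a replicate block, limma called 840 genes higher and 5926 lower, and the class medians were the same. Deviations of same-numbered RNA libraries correlated at 0.109 over genes, and with 2 pairs the libraries share only a number. No paired analysis was possible for peaks because the comparison of lists comes from no model fit.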
